A study of Homo sapiens with 8 samples.

Results

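The genes described here are the homeobox and paired-box developmental transcription factors outside the HOX clusters, as measured in MP38 cells, a BAP1-mutant uveal melanoma line. Members were the rows of the gene count table whose symbol began with DLX, LHX, PAX, IRX, MSX, MEIS, PBX, NKX, POU, OTX, GBX, EMX, EN, VAX, ALX, PITX, TLX or the letters of SIX2 to SIX6, followed by the gene's number. There were 105 of them among 35238 rows, 93 protein-coding genes and 12 pseudogenes, and the choice used the symbol alone. Cells were grown for 24 h in 0.1% DMSO (control), in 40 nM romidepsin, in 40 nM quisinostat or in 1200 nM mivebresib, the drugs also in 0.1% DMSO, and 2 libraries were sequenced per group from separate wells. All 8 libraries thus come from the same cell line, and p-values measure the spread between wells of that line. Histone deacetylases (HDAC), which remove acetyl groups from histones, are the targets of romidepsin and quisinostat. Mivebresib keeps BET proteins from binding acetylated histones. The comparisons ask how these genes differed between each drug and the control, and between the drugs.

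Homeobox genes encode transcription factors that bind DNA through a homeodomain and specify where in the embryo a cell lies and what it becomes. Most are active in a few tissues and are kept silent elsewhere by Polycomb repression. They work in partnerships: PBX and MEIS proteins of the TALE class bind DNA together with other homeodomain proteins, SIX3 and its relatives pattern the eye and forebrain, some of them recruiting EYA coactivators, and LHX proteins are bridged by LDB cofactors. The paired-box members are selected by the same rule although PAX1 and PAX9 have no homeodomain and PAX2, PAX5 and PAX8 only part of one. In the melanocyte lineage, PAX3 is the best known member, acting with SOX10 upstream of MITF, the regulator of pigment genes.

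The libraries held 28483235 to 29359024 counts, and the members took 0.0577% to 0.0827% of them, with both quisinostat libraries highest. Levels are given as CPM, the counts of a gene in each 1000000 counts of the library after TMM, edgeR's scaling for library composition. Fold changes and adjusted p-values come from edgeR's quasi-likelihood test across 15085 genes with Benjamini-Hochberg adjustment. A gene is said to have risen or fallen at an adjusted p below 0.05, and to have been called when its log2 fold change also went beyond 1.5. The melanocytic markers MITF, SOX10, PMEL, MLANA, TYR, TYRP1 and DCT were all detected, at a summed 4193 to 5452 CPM in the control. Of 5 immune genes, only CD3E (T cell) was at 0 in every library, and the 5 summed to 61.2 to 83.2 CPM over all libraries. However, only 1 of these 5 had enough counts to be tested. Of 5 epithelial genes, only KRT5 (basal epithelium) was at 0 in every library, and the 5 summed to 4.31 to 4.68 CPM in the control. The 2 control libraries were further apart than those of the drug groups, with a chi-square per degree of freedom of 58.1 beside 9.52 to 9.79. In bulk RNA, a change in the number of expressing cells and a change in the RNA per cell cannot be told apart.

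Few members were abundant in untreated MP38 cells. Per kilobase of annotated exon, the highest control levels were those of PBX3 at 27.1 CPM per kb, PAX3 at 22.5, PBX2 at 20.4 and MEIS3 at 9.56, followed by PITX1 at 5.95, EN2 at 4.11 and SIX5 at 4.05. PAX3, which maintains melanocyte precursors, had 180 and 178 CPM in the control libraries, 160 and 160 with romidepsin, 132 and 132 with quisinostat and 199 and 221 with mivebresib. It fell with quisinostat by 0.44 on the log2 scale (SE 0.08, adjusted p = 0.0021) and rose with mivebresib by 0.23 (SE 0.08, adjusted p = 0.0447), and no comparison brought it to a call. Of the 105 members, 73 passed the filter on low counts, 71 of them protein-coding, and 9 had 0 counts in all 8 libraries. In 52 of the 73, both control libraries reached the filter's level of 0.345 CPM. The other 21 were below it in at least 1 control library and entered the test through drug-treated libraries, so their rises are in part a condition of being tested.

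Both HDAC inhibitors raised more members than they lowered, and mivebresib moved members both ways. With romidepsin 15 of the 73 tested members were called higher, against 3.77% of all tested genes, and 0 lower, against 0.312%. With quisinostat 25 were called higher, against 11.2% of all tested genes, and 0 lower, against 1.03%. With mivebresib 8 were called higher (3.96% of all tested genes) and 8 lower (4.36%). By adjusted p alone, 29 members rose (15.2% of all tested genes) and 12 fell (15.8%) with romidepsin, 39 rose (28%) and 9 fell (25.1%) with quisinostat, and 17 rose (22.2%) and 22 fell (24.1%) with mivebresib. The counts of 0 called lower by edgeR with either HDAC inhibitor were also 0 at an unadjusted p under 0.05, by DESeq2 and by limma-voom. The median log2 fold change of the tested members was 0.34 with romidepsin, 0.79 with quisinostat and -0.14 with mivebresib, where the medians of all tested genes were -0.012, -0.0036 and 0.0067. The 3 drug groups share the same control libraries. The 2 libraries of a drug did not overlap the 2 control libraries in 56, 61 and 51 members for romidepsin, quisinostat and mivebresib, against 63.6%, 74.2% and 69.7% of all tested genes.

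**Figure D1:**
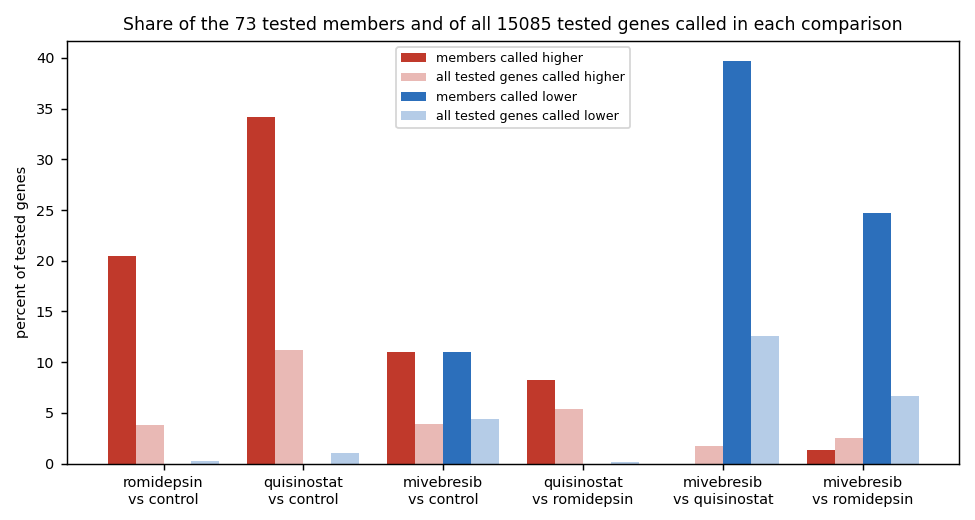
Percent of tested genes called higher (red) or lower (blue) in each of the 6 comparisons, for the 73 tested members (dark bars) and for all 15085 tested genes (pale bars). Among members, the bar for 29 called lower in mivebresib against quisinostat is the tallest, next to 25 called higher in quisinostat against control.

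The counts divided by the members' level in untreated cells. Of the 52 members at the filter's level in both control libraries, 1 was called higher with romidepsin, 7 with quisinostat and 0 with mivebresib, where 1.45%, 5.68% and 2.12% of all genes at that level were. Of the 21 others, 14, 18 and 8 were called higher, where 20.4%, 50.6% and 17.1% of all such genes were. All 8 members called lower with mivebresib were among the 52. The 21 others started from few counts, which left little room for a fall to be called. Control library 1 was above control library 2 in 47 of the 73 members, with a median log2 difference of 0.22, where the median over all genes was 0 and 49.4% of genes were higher in library 1. The median GC content of the members' longest transcripts was 57.0%, against 48.6% over the tested genes with an annotated transcript. The part of either in the comparisons was not tested, but leaving out a control library is among the alternatives given with the limits.

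**Figure D2:**
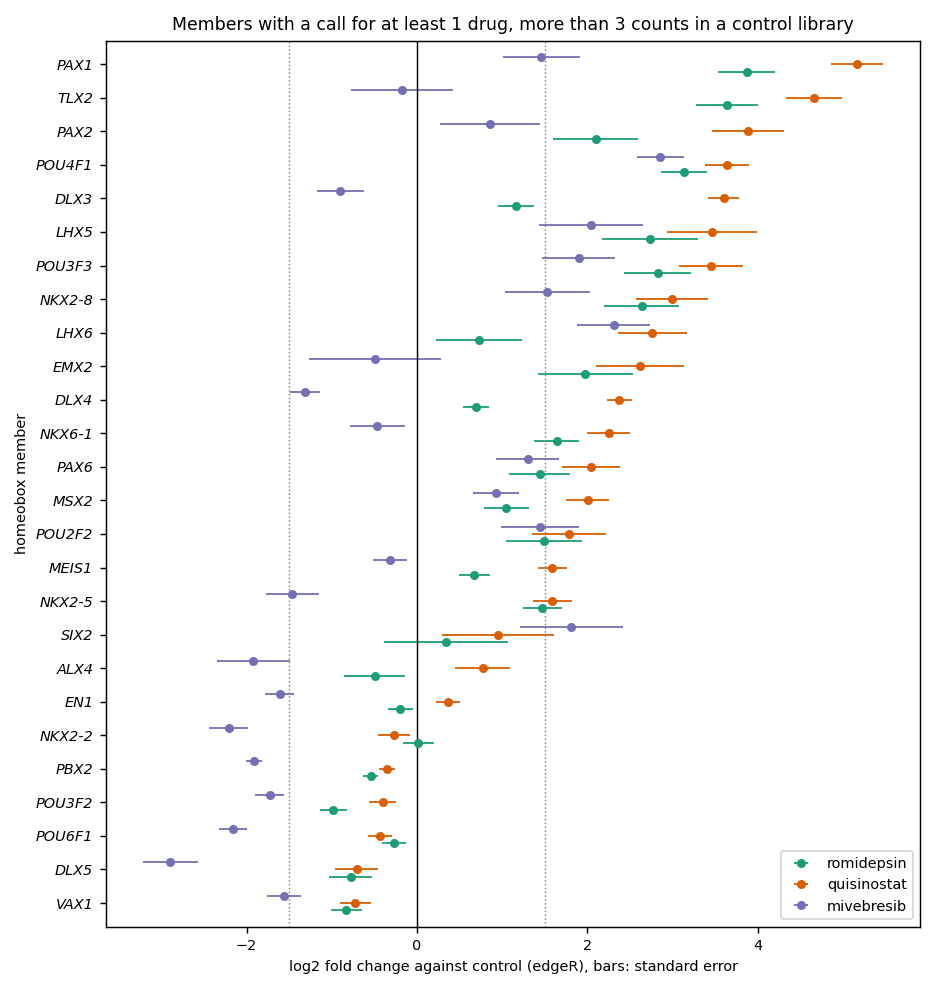
Log2 fold change against the control for most members called with at least 1 drug and with more than 3 counts in a control library, romidepsin in green, quisinostat in orange and mivebresib in purple; bars are standard errors and dotted lines mark 1.5 in either direction. PAX1 stands highest with quisinostat at 5.17, and DLX5 lowest with mivebresib at -2.90.

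Promoter sequence is shown for 4 members that moved with different drugs, because these members stand for the rises with HDAC inhibitors and the falls with mivebresib. RefSeq start sites on GRCh38.p14 were matched by symbol for 48 of the 105 members, 37 of them tested. The 250 bases upstream of the start are printed for NKX6-1 (chr4:84499293-84499542, minus strand) and PITX3 (chr10:102241513-102241762, minus strand), called higher with both HDAC inhibitors. They are also printed for PBX2 (chr6:32190203-32190452, minus strand) and POU3F2 (chr6:98834324-98834573, plus strand), called lower with mivebresib. Capitals mark CCAAT or its reverse complement ATTGG.
NKX6-1: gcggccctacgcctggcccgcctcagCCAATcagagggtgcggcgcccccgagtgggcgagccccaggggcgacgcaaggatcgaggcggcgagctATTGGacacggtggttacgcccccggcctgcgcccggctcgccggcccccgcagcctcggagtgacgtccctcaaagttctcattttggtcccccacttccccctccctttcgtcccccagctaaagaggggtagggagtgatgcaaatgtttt
PITX3: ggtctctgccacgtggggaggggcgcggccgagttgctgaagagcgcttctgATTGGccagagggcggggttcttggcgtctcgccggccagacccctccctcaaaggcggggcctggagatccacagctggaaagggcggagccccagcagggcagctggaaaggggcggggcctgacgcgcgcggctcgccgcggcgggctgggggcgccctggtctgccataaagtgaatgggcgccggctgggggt
PBX2: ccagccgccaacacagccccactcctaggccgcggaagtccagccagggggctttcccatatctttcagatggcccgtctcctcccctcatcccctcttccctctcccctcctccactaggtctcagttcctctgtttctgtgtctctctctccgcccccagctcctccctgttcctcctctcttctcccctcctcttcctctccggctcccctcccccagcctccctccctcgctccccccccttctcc
POU3F2: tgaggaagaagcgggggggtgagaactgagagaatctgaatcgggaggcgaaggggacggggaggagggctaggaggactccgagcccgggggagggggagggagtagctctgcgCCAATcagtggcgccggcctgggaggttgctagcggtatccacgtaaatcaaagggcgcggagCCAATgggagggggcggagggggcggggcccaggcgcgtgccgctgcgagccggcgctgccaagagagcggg
The PBX2 window is a pyrimidine-rich stretch with 7 CG dinucleotides and no CCAAT on either strand, while the other windows hold 22 or 23 CG dinucleotides and at least 1 CCAAT or ATTGG. In windows of 300 bases (250 before the start and 50 after), CCAAT on either strand stood in 67.6% of the 37 tested members and in 37.5% of all tested genes with a sequence. The share was 61.5% among the 13 members called higher with quisinostat and 70.8% among the 24 that were not. The GC box core GGGCGG, searched on both strands, stood in 75.7% of tested members and 72.1% of all tested genes, and the median number of CG dinucleotides was 29 against 27. The letters describe these windows and say nothing of binding.

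Among the TALE cofactors, MEIS1 rose with the HDAC inhibitors and PBX2 and MEIS2 fell with mivebresib. MEIS1, known for its part in blood stem cells and leukaemia, had 2.16 and 2.23 CPM in the control, 3.02 and 3.99 with romidepsin, 6.74 and 6.5 with quisinostat and 1.83 and 1.69 with mivebresib. It rose by 0.68 with romidepsin (SE 0.18, adjusted p = 0.0244) and by 1.59 with quisinostat (SE 0.17, adjusted p = 0.000121).

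PBX2 (chr6:32184741-32190186) encodes a partner of HOX and MEIS proteins. It had 92.1 and 84.9 CPM in the control, 58.7 and 62.9 with romidepsin, 70.9 and 68.1 with quisinostat and 21.9 and 25 with mivebresib. All 3 drugs lay below the control, and mivebresib furthest, with a log2 fold change of -1.92 (SE 0.10, adjusted p = 3.48e-06). PBX3 fell with both HDAC inhibitors, from 123 ± 14 CPM (SD, n = 2) to 96.9 ± 4.9 with romidepsin (log2 fold change -0.34, adjusted p = 0.0315) and 88.5 ± 5.9 with quisinostat (-0.47, adjusted p = 0.00402). PBX3 did not pass the test with mivebresib. MEIS2 had 11.5 and 12.5 CPM in the control, 16.7 and 17.7 with quisinostat and 5.16 and 5.9 with mivebresib, a rise of 0.52 (SE 0.11, adjusted p = 0.00343) and a log2 fold change of -1.12 (SE 0.12, adjusted p = 0.000108). MEIS3, the third MEIS gene, did not pass the test with any drug and overlapped the control with romidepsin and mivebresib.

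Of 6 further TALE-related genes listed, all 6 were tested. PBXIP1, a PBX-binding protein, rose with quisinostat by 1.18 (SE 0.15, adjusted p = 0.000281), and PKNOX2 rose by 1.36 (SE 0.21, adjusted p = 0.000734), while its paralog PKNOX1 fell with romidepsin by 0.91 (SE 0.11, adjusted p = 0.000749) and with quisinostat by 0.62 (SE 0.11, adjusted p = 0.00172). TGIF1, a corepressor of TGF-beta signalling, rose with mivebresib by 0.90 (SE 0.10, adjusted p = 0.000185), and TGIF2 had a log2 fold change of -1.27 with it (SE 0.13, adjusted p = 9.69e-05). By adjusted p, 0 of the 6 rose and 2 fell with romidepsin (15.2% and 15.8% of all tested genes). With quisinostat 3 rose and 2 fell (28% and 25.1%), and with mivebresib 1 rose and 2 fell (22.2% and 24.1%).

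**Figure D3:**
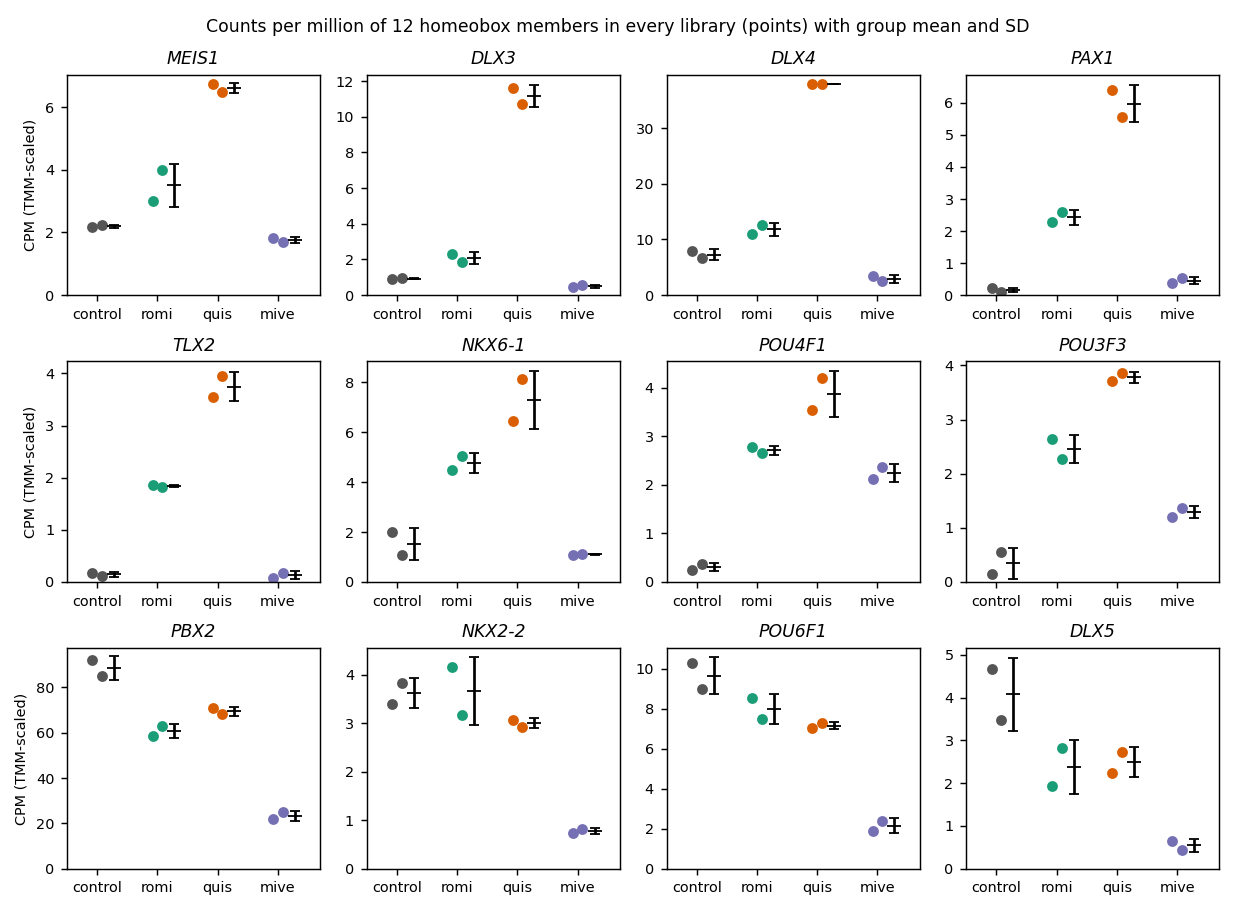
CPM of 12 members in each library (coloured points, linear axes from 0) with the group mean and SD (black). MEIS1, DLX3 and DLX4 are highest with quisinostat, POU4F1 and POU3F3 are above the control with all 3 drugs, and PBX2, NKX2-2, POU6F1 and DLX5 are lowest with mivebresib.

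The DLX genes, which pattern the branchial arches, skin appendages, placenta and forebrain, moved unequally with quisinostat. DLX3, a regulator of epidermis, hair and tooth, had 0.886 and 0.95 CPM in the control, 2.3 and 1.83 with romidepsin, 11.6 and 10.7 with quisinostat and 0.439 and 0.539 with mivebresib. It rose with both HDAC inhibitors, 12.1-fold with quisinostat (log2 fold change 3.60, SE 0.18, adjusted p = 2.84e-06), and fell with mivebresib by 0.90 (SE 0.27, adjusted p = 0.0263). DLX4, a placental gene, had 7.97 and 6.61 CPM in the control, 11 and 12.6 with romidepsin, 37.9 and 37.9 with quisinostat and 3.44 and 2.45 with mivebresib. The 4 groups of DLX4 did not overlap, with a log2 fold change of 2.38 for quisinostat (SE 0.15, adjusted p = 6.15e-06) and -1.31 for mivebresib (SE 0.18, adjusted p = 0.000456). DLX2, a forebrain and jaw gene, rose with quisinostat by 1.41 (SE 0.16, adjusted p = 0.000149), from 2.27 and 2.67 to 6.36 and 6.78 CPM. DLX5, a bone and jaw gene, had 4.68 and 3.47 CPM in the control, 1.92 and 2.82 with romidepsin, 2.25 and 2.74 with quisinostat and 0.658 and 0.432 with mivebresib. It was below the control with every drug, with log2 fold changes of -0.78 (adjusted p = 0.0485), -0.71 (adjusted p = 0.0421) and -2.90 (SE 0.32, adjusted p = 0.000161). By adjusted p, 2 of 6 tested DLX genes rose and 2 fell with romidepsin (15.2% and 15.8% of all tested genes). With quisinostat 4 rose and 1 fell (28% and 25.1%), and with mivebresib 0 rose and 5 fell (22.2% and 24.1%).

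The MSX, EN, VAX, GBX and EMX genes, which pattern skull, brain and eye, moved in both directions. MSX2, a skull and limb gene, had 2.13 and 1.1 CPM in the control, 3.33 and 3.37 with romidepsin, 6.55 and 6.43 with quisinostat and 3.4 and 2.77 with mivebresib, and rose with all 3 drugs, by 2.00 with quisinostat (SE 0.25, adjusted p = 0.000266). EN1, which marks the midbrain-hindbrain boundary, had 5.53 and 4.68 CPM in the control and 1.72 and 1.62 with mivebresib, a log2 fold change of -1.61 (SE 0.17, adjusted p = 0.000113), and did not pass the test with either HDAC inhibitor. VAX1, needed for the optic nerve, fell with all 3 drugs, from 11.2 and 8.37 CPM to 4.74 and 6.27 with romidepsin, 6.05 and 5.8 with quisinostat and 3.51 and 3.13 with mivebresib (log2 fold change -1.56, SE 0.20, adjusted p = 0.000314). GBX2, a hindbrain gene, fell with romidepsin by 0.94 (SE 0.24, adjusted p = 0.0189) and with quisinostat by 0.85 (SE 0.24, adjusted p = 0.0151), and overlapped the control with mivebresib. The cortical gene EMX1 had 0 counts in both control libraries, 13 and 18 with romidepsin, 47 and 47 with quisinostat and 6 and 3 with mivebresib. Set against a floor of 3 counts per control library, EMX1 was at least 4.94-fold higher with romidepsin and at least 13.8-fold higher with quisinostat. EMX2 had 4 and 6 counts in the control, 17 and 25 with romidepsin, 40 and 31 with quisinostat and 1 and 6 with mivebresib, and rose by 2.62 with quisinostat (SE 0.52, adjusted p = 0.00304). EMX1 and EMX2 were below the filter's level in both control libraries, so their rises are in part a condition of being tested.

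Of 9 tested NKX genes, 6 rose with both HDAC inhibitors. With mivebresib NKX2-2, NKX2-5 and NKX3-2 fell, and others rose, among them NKX2-1 and NKX2-8. Over all tested genes, 15.2% rose with romidepsin and 28% with quisinostat, and with mivebresib 22.2% rose and 24.1% fell. Of the 6, only NKX2-5 and NKX6-1 were at the filter's level in both control libraries. The rises of the others are in part a condition of being tested. NKX6-1, a regulator of pancreatic beta cells and motor neuron progenitors, had 1.98 and 1.06 CPM in the control, 4.5 and 5.06 with romidepsin, 6.46 and 8.12 with quisinostat and 1.1 and 1.11 with mivebresib. It rose by 1.64 with romidepsin (SE 0.26, adjusted p = 0.00252) and by 2.25 with quisinostat (SE 0.26, adjusted p = 0.000147), and mivebresib overlapped the control. NKX2-5, the cardiac regulator, had 1.35 and 1.57 CPM in the control, 4.46 and 3.65 with romidepsin, 4.81 and 3.98 with quisinostat and 0.658 and 0.396 with mivebresib. It rose by 1.47 and 1.59 with the HDAC inhibitors (adjusted p = 0.0023 and 0.000543) and fell by 1.46 with mivebresib (SE 0.31, adjusted p = 0.00507). NKX2-2, a ventral neural tube and islet gene, had 3.4 and 3.84 CPM in the control and 0.732 and 0.827 with mivebresib, a log2 fold change of -2.21 (SE 0.23, adjusted p = 0.00011). Romidepsin overlapped the control for NKX2-2, at 4.16 and 3.17 CPM.

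Several NKX genes were close to silent in the control. NKX2-8, a foregut gene, had 0.283 and 0.11 CPM in the control, 1.13 and 1.38 with romidepsin, 1.71 and 1.5 with quisinostat and 0.439 and 0.719 with mivebresib, and rose by 2.64 with romidepsin (adjusted p = 0.003) and 2.99 with quisinostat (adjusted p = 0.000498). NKX2-1, which specifies thyroid, lung and ventral forebrain, had 0 counts in both control libraries, 6 and 8 with romidepsin, 18 and 19 with quisinostat and 2 and 2 with mivebresib. It was at least 2.23-fold higher with romidepsin and at least 5.44-fold higher with quisinostat. NKX1-2 had 1 and 1 counts in the control and in mivebresib, 13 and 5 with romidepsin and 34 and 22 with quisinostat, a ratio of 24.7 to the control for quisinostat (95% exact counting interval 6.53 to 209). TLX2, a gene of enteric and sympathetic neurons, had 0.177 and 0.11 CPM in the control, 1.85 and 1.83 with romidepsin, 3.55 and 3.95 with quisinostat and 0.0732 and 0.18 with mivebresib. It rose by 3.64 with romidepsin (SE 0.36, adjusted p = 0.000271) and 4.66 with quisinostat (SE 0.33, adjusted p = 1.26e-05), and mivebresib overlapped the control. TLX2 was below the filter's level in both control libraries, so its rises are in part a condition of being tested. TLX3, a sensory neuron gene, fell with mivebresib by 0.97 (SE 0.25, adjusted p = 0.0133).

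Of the PAX genes other than PAX3, 5 were tested, and each of them rose with quisinostat, as did 28% of all tested genes. PAX1, PAX2, PAX5 and PAX6 were below the filter's level in both control libraries, so their rises are in part a condition of being tested. PAX1 (chr20:21705659-21718486), which forms the vertebral column from the sclerotome, had 0.213 and 0.11 CPM in the control, 2.27 and 2.58 with romidepsin, 6.39 and 5.57 with quisinostat and 0.366 and 0.539 with mivebresib. The 4 groups did not overlap, and the log2 fold change was 3.87 with romidepsin (SE 0.34, adjusted p = 0.000156), 5.17 with quisinostat (SE 0.31, adjusted p = 5.08e-06) and 1.46 with mivebresib (SE 0.45, adjusted p = 0.0284). PAX2, a kidney and optic stalk gene, had 0.319 and 0.0731 CPM in the control, 0.721 and 0.999 with romidepsin and 2.82 and 3.15 with quisinostat, and rose by 3.89 with quisinostat (SE 0.43, adjusted p = 0.000123). PAX6, the eye and islet regulator, had 0.283 and 0.256 CPM in the control, 0.687 and 0.792 with romidepsin, 1.23 and 1.02 with quisinostat and 0.585 and 0.755 with mivebresib. It rose with all 3 drugs, by 2.05 with quisinostat (SE 0.34, adjusted p = 0.00118), and it overlaps ELP4 on the opposite strand. PAX5, the B cell regulator, had 1 and 0 counts in the control, 4 and 12 with romidepsin, 16 and 37 with quisinostat and 1 and 0 with mivebresib. The ratio of quisinostat to the control for PAX5 was 46.8, with a counting interval from 8.04 to 1882. PAX9 rose by 0.89 with romidepsin (adjusted p = 0.00701) and 1.46 with quisinostat (adjusted p = 0.000191), and did not pass the test with mivebresib.

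PITX1 and PITX3 differed in level and direction. PITX1, the hindlimb gene, had 23.3 and 18.5 CPM in the control, 11.1 and 12 with romidepsin, 16 and 15.3 with quisinostat and 21.1 and 17.9 with mivebresib, and fell with romidepsin by 0.85 (SE 0.14, adjusted p = 0.00244) and with quisinostat by 0.42 (SE 0.13, adjusted p = 0.0269). PITX3, a lens and dopaminergic neuron gene, had 1 and 2 counts in the control, 22 and 22 with romidepsin, 30 and 19 with quisinostat and 1 and 0 with mivebresib. The ratio to the control was 14.0 for romidepsin (counting interval 4.50 to 70.6) and 14.4 for quisinostat (4.65 to 72.3). PITX3 was below the filter's level in both control libraries, so its rises are in part a condition of being tested. OTX1, a forebrain gene, rose with both HDAC inhibitors and was not called. ALX4, a craniofacial gene, had 1.56 and 1.21 CPM in the control and 0.183 and 0.539 with mivebresib, a log2 fold change of -1.92 (SE 0.43, adjusted p = 0.00623).

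SIX2 to SIX6 all passed the filter. SIX4, a placode and muscle gene, had 6.13 and 6.06 CPM in the control, 10.2 and 10.1 with romidepsin, 9.12 and 10.6 with quisinostat and 3.55 and 3.09 with mivebresib. It rose by 0.73 (SE 0.13, adjusted p = 0.00339) and 0.69 (SE 0.13, adjusted p = 0.00188) with the HDAC inhibitors and fell by 0.88 with mivebresib (SE 0.14, adjusted p = 0.00116). SIX5 fell with romidepsin by 0.95 (SE 0.13, adjusted p = 0.00139) and with quisinostat by 0.55 (SE 0.13, adjusted p = 0.00737), from 16 and 12.8 CPM to 7.21 and 7.65 and to 10.4 and 9.27, while mivebresib overlapped the control. The eye field genes SIX3 and SIX6 were near 0 in the control. Both were below the filter's level there, so their rises are in part a condition of being tested. SIX3 had 1 and 0 counts there, 11 and 20 with romidepsin, 11 and 24 with quisinostat and 1 and 1 with mivebresib, a ratio of 29.6 for romidepsin (counting interval 4.94 to 1208) and 30.9 for quisinostat (5.19 to 1255). SIX6 had 3 and 0 counts in the control, 10 and 18 with romidepsin, 22 and 22 with quisinostat and 1 and 1 with mivebresib, a ratio of 12.9 for quisinostat (4.15 to 65.2). Of the EYA and DACH partners, 3 of 6 were tested. Among these 3, quisinostat raised 2 by adjusted p, against 28% of all tested genes. Romidepsin and mivebresib each raised 1, against 15.2% and 22.2%. EYA2 was below the filter's level in the control, so its increase is in part a condition of being tested. EYA4 rose with all 3 drugs, by 2.13 (SE 0.38, adjusted p = 0.00408), 2.85 (SE 0.36, adjusted p = 0.00027) and 1.64 (SE 0.40, adjusted p = 0.0099), EYA2 rose with quisinostat by 4.30 (SE 0.52, adjusted p = 0.000368) from 0.0714 to 1.49 CPM, and EYA3, at 21.2 CPM in the control, did not pass the test with any drug.

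LHX genes, which specify neuron types in the brain and spinal cord, rose with quisinostat in 4 of 5 tested, against 28% of all tested genes. LHX5 and LHX6 were below the filter's level in at least 1 control library, so their rises are in part a condition of being tested. LHX6, a cortical interneuron gene, had 0.142 and 0.292 CPM in the control, 0.412 and 0.31 with romidepsin, 1.52 and 1.46 with quisinostat and 1.32 and 0.863 with mivebresib. It rose by 2.76 with quisinostat (SE 0.41, adjusted p = 0.000602) and by 2.31 with mivebresib (SE 0.43, adjusted p = 0.00248), and it was the only member called higher in mivebresib against romidepsin, at 1.58 (SE 0.38, adjusted p = 0.00918). That last call was lost without romidepsin replicate 2 (1.39, adjusted p = 0.0653) and without mivebresib replicate 1 (1.25, adjusted p = 0.0663). LHX5 had 12 and 1 counts in the control, 39 and 53 with romidepsin, 80 and 85 with quisinostat and 31 and 23 with mivebresib, and rose with romidepsin by 2.74 (SE 0.57, adjusted p = 0.0078) and with quisinostat by 3.46 (SE 0.53, adjusted p = 0.000783). LHX1 and LHX4 rose with quisinostat by 0.92 (adjusted p = 0.0108) and 1.11 (adjusted p = 0.00636), LHX4 overlapping ACBD6 on the opposite strand, and LHX2 did not pass the test with any drug. Among 14 LIM-homeodomain partners, 9 were tested, of which 1 rose and 1 fell with romidepsin (15.2% and 15.8% of all tested genes). With quisinostat 4 rose and 2 fell (28% and 25.1%), and with mivebresib 2 rose and 2 fell (22.2% and 24.1%). The scaffold LDB1 was near level, from 73.2 CPM in the control to 62.4 with quisinostat (log2 fold change -0.23, adjusted p = 0.0355). The competing LIM-only gene LMO4 rose with quisinostat by 0.96 (SE 0.09, adjusted p = 6.28e-05), and LMO2 had a log2 fold change of -1.53 with mivebresib (SE 0.20, adjusted p = 0.000431).

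Among the POU genes, POU4F1 and POU3F3 were called higher with all 3 drugs. Over all tested genes, 3.77% were called higher with romidepsin, 11.2% with quisinostat and 3.96% with mivebresib. POU4F1, POU3F3 and POU2F2 were below the filter's level in at least 1 control library, so their rises are in part a condition of being tested. POU4F1 (chr13:78598362-78603560), a sensory neuron factor, had 0.248 and 0.365 CPM in the control, 2.78 and 2.65 with romidepsin, 3.55 and 4.2 with quisinostat and 2.12 and 2.37 with mivebresib. Every drug library stood above both control libraries, with log2 fold changes of 3.13 (SE 0.27, adjusted p = 0.000148), 3.64 (SE 0.26, adjusted p = 1.19e-05) and 2.86 (SE 0.28, adjusted p = 7.94e-05). POU4F1 overlaps annotated antisense transcripts. POU3F3, a cortical and kidney gene, had 0.142 and 0.548 CPM in the control, 2.64 and 2.27 with romidepsin, 3.7 and 3.85 with quisinostat and 1.21 and 1.37 with mivebresib, with log2 fold changes of 2.83 (SE 0.39, adjusted p = 0.0013), 3.45 (SE 0.38, adjusted p = 0.000119) and 1.90 (SE 0.43, adjusted p = 0.00709). Its relative POU3F2, which is known in neural progenitors and in invasive melanoma, had 8.11 and 7.16 CPM in the control, 4.26 and 3.48 with romidepsin, 5.29 and 6.27 with quisinostat and 2.19 and 2.41 with mivebresib. POU3F2 fell with romidepsin by 0.98 (SE 0.16, adjusted p = 0.00285) and with mivebresib by 1.73 (SE 0.17, adjusted p = 9.56e-05), and did not pass the test with quisinostat. POU6F1 had 10.3 and 8.99 CPM in the control, 8.52 and 7.47 with romidepsin, 7.03 and 7.29 with quisinostat and 1.9 and 2.41 with mivebresib, and fell by 2.16 with mivebresib (SE 0.16, adjusted p = 2.18e-05). The ubiquitous POU2F1 stayed between 15.1 and 20.7 CPM and overlapped the control with each drug, while the lymphoid POU2F2 was called with quisinostat at 1.79 (SE 0.43, adjusted p = 0.00799), a call lost without quisinostat replicate 1 (1.61, adjusted p = 0.0631). Of 8 listed OCT partners, 6 were tested. By adjusted p, 1 rose and 1 fell with romidepsin (15.2% and 15.8% of all tested genes). With quisinostat 0 rose and 1 fell (28% and 25.1%), and with mivebresib 1 rose and 3 fell (22.2% and 24.1%). SNAPC1, a subunit of the small nuclear RNA activating complex, rose with romidepsin by 0.76 (SE 0.09, adjusted p = 0.000518) and fell with mivebresib by 0.44, and SNAPC5 fell with all 3 drugs.

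The IRX genes, patterning factors of heart, limb and neural plate, had no call against the control. IRX4, a ventricular gene, had 4.64 and 3.58 CPM in the control, 6.8 and 6.23 with romidepsin, 7.72 and 8.95 with quisinostat and 1.57 and 1.58 with mivebresib, and fell by 1.38 with mivebresib (SE 0.19, adjusted p = 0.000566). IRX2 rose with mivebresib, from 12 and 8.88 to 15.9 and 18.6 CPM (0.73, SE 0.21, adjusted p = 0.0191), and IRX5 did as well, from 5.1 and 4.02 to 8.3 and 6.8 CPM (0.73, SE 0.18, adjusted p = 0.0103). IRX3 and IRX6 fell with mivebresib, by 1.07 (adjusted p = 0.00158) and 1.05 (adjusted p = 0.0131).

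Members that lie within 1 Mb of each other did not always move together. PAX1 and NKX2-2 are neighbours on chr20 (chr20:21511010-21514026 for NKX2-2), and PAX1 was called higher with quisinostat at 5.17 while NKX2-2 had -0.27 (adjusted p = 0.252). DLX3 (chr17:49990005-49995224) and DLX4 (chr17:49968970-49974959) shared direction with each drug. In contrast, of the neighbouring pair DLX5 and DLX6 on chr7, DLX6 rose with quisinostat by 0.79 (adjusted p = 0.0362) and DLX5 fell by 0.71 (adjusted p = 0.0421), and both fell with mivebresib. VAX1 fell with both HDAC inhibitors and its neighbour EMX2 on chr10 rose with both. On chr14, NKX2-8 and PAX9 rose with both HDAC inhibitors, as did SIX6 and SIX4 further along. Of the neighbours IRX4 and IRX2 on chr5, IRX4 fell with mivebresib by 1.38 (adjusted p = 0.000566) and IRX2 rose by 0.73 (adjusted p = 0.0191).

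**Figure D4:**
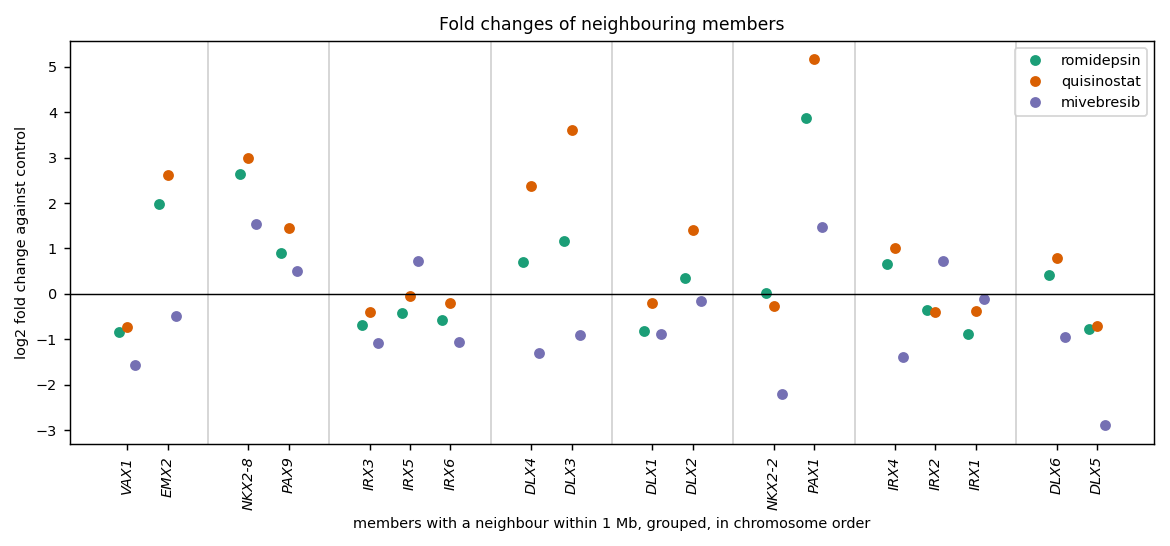
Log2 fold change against the control for tested members with another plotted member within 1 Mb, groups of 3 being chained through the middle gene, separated by grey lines and ordered along the chromosome; points are romidepsin (green), quisinostat (orange) and mivebresib (purple), without error bars. PAX1 at 5.17 with quisinostat sits beside NKX2-2 at -0.27, while DLX4 and DLX3 lie at 2.38 and 3.60.

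Set directly against each other at the same 40 nM, quisinostat stood above romidepsin in 26 of 73 tested members by adjusted p alone (21% of all tested genes) and below it in 1, PAX3 (14.6%), with a log2 difference of -0.27 (SE 0.08, adjusted p = 0.0295). With quisinostat 6 members were called higher than with romidepsin (5.41% of all tested genes), among them DLX3, DLX4, LHX6, PAX2 and NKX1-2, and 0 were called lower (0.179%). LHX6 and NKX1-2 fell short of the filter's level in a romidepsin library, so their calls are in part a condition of being tested. The count of 0 from edgeR was also 0 at an unadjusted p under 0.05, by DESeq2 and by limma-voom. The largest difference was that of DLX3, at 2.43 (SE 0.16, adjusted p = 4.96e-05), followed by LHX6 at 2.03 (SE 0.37, adjusted p = 0.00359), and DLX4 stood at 1.68 (SE 0.14, adjusted p = 0.000124). For PITX3, SIX3 and NKX2-5 the difference did not pass the test, at 0.04 (SE 0.37), 0.06 (SE 0.50) and 0.12 (SE 0.20). The call of NKX1-2 was lost without romidepsin replicate 2 (0.98, adjusted p = 0.195), without either quisinostat or either mivebresib library, by DESeq2 (adjusted p = 0.153) and with no filter (adjusted p = 0.0551).

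Mivebresib, at a different dose and against a different target, was compared with both HDAC inhibitors. Against quisinostat 29 members were called lower (12.6% of all tested genes) and 0 higher (1.73%), and against romidepsin 18 were called lower (6.7%) and 1 higher (2.52%). Of the tested members, 72 were at the filter's level in both quisinostat libraries, 66 in both romidepsin libraries and 61 in both mivebresib libraries. Some members called lower thus entered the test through HDAC inhibitor libraries, and those calls are in part a condition of being tested. The 0 called higher against quisinostat by edgeR was also 0 at an unadjusted p under 0.05, by DESeq2 and by limma-voom. By adjusted p alone, 7 members were higher (26.2%) and 49 lower (31.5%) than with quisinostat, and 10 higher (23.7%) and 36 lower (25.2%) than with romidepsin. Those higher than with quisinostat included GBX2, IRX2, IRX5, PAX3, POU3F1 and SIX5. TLX2 stood below its quisinostat level, at -4.84 on the log2 scale (SE 0.34, adjusted p = 9.53e-06), DLX3 at -4.50 (SE 0.20, adjusted p = 1.44e-06) and DLX4 at -3.69 (SE 0.16, adjusted p = 1.36e-06). TLX2 was below the filter's level in the control and mivebresib libraries, and entered the test through those of the HDAC inhibitors.

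The members called higher with mivebresib against the control were EMX1, LHX5, LHX6, NKX2-1, NKX2-8, POU3F3, POU4F1 and SIX2, and several of these calls rested on few counts. All 8 were below the filter's level in at least 1 control library, so their rises are in part a condition of being tested. The calls of LHX6, POU3F3 and POU4F1 stayed past the test with each library left out. SIX2, with 4 and 5 counts in the control, 4 and 8 with romidepsin, 15 and 5 with quisinostat and 14 and 18 with mivebresib, had 1.81 (SE 0.61, adjusted p = 0.0375), and lost significance without control replicate 1 (1.64, adjusted p = 0.119), control replicate 2 (2.00, adjusted p = 0.069), romidepsin replicate 2 (1.81, adjusted p = 0.0501), mivebresib replicate 1 (1.97, adjusted p = 0.0797) or mivebresib replicate 2 (1.64, adjusted p = 0.153). LHX5 lost it without mivebresib replicate 1 (1.80, adjusted p = 0.114) or 2 (2.26, adjusted p = 0.0522). NKX2-8 lost it without control replicate 2 (1.02, adjusted p = 0.153) or mivebresib replicate 2 (1.13, adjusted p = 0.194), and also without romidepsin replicate 2 (1.53, adjusted p = 0.0503) or either quisinostat library (1.53, adjusted p = 0.0563 and 0.0556). EMX1, for which only counts are given above, lost its call without mivebresib replicate 1 (adjusted p = 0.0584), and NKX2-1 lost its call when any of the 8 libraries was left out (adjusted p from 0.0709 to 0.148). The calls of SIX2 and NKX2-1 were also lost by DESeq2 (adjusted p = 0.079 and 0.104), with no filter (0.0564 and 0.0797) and with the replicate number as a block (0.0551 and 0.0698). Those of LHX5 and NKX2-8 were lost when only the 4 libraries of the comparison were used (adjusted p = 0.058 and 0.0739). Of the romidepsin calls, PAX2, SIX3 and SIX6 were lost without romidepsin replicate 2 (adjusted p = 0.0796, 0.0508 and 0.106). EMX2 was lost without romidepsin replicate 1 (0.06) or 2 (0.138), control replicate 1 (0.0911) or either quisinostat library (0.0529 and 0.0522), and NKX1-2 without romidepsin replicate 1 (0.198), control replicate 1 (0.0882) or 2 (0.0642) or mivebresib replicate 2 (0.05), and by DESeq2 (0.0504), all adjusted p. With only the 4 libraries of the comparison, PAX2 and SIX6 were lost with romidepsin (adjusted p = 0.0586 and 0.0644).

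Of 82 listed homeobox genes outside the rule, which include TALE and LIM genes named above, 45 were tested. With quisinostat 25 rose (55.6%, against 28% of all tested genes) and 7 fell (15.6%, against 25.1%), 14 being called higher and 0 lower (11.2% and 1.03% of all tested genes). With romidepsin 8 rose (17.8%, against 15.2%) and 6 fell (13.3%, against 15.8%), shares near those of all genes. With it 4 were called higher and 0 lower (3.77% and 0.312% of all tested genes). With mivebresib 6 rose (13.3%, against 22.2%) and 15 fell (33.3%, against 24.1%), with 1 called higher and 4 lower (3.96% and 4.36% of all tested genes). The median log2 fold change was 0.64 with quisinostat, 0.082 with romidepsin and -0.23 with mivebresib. ZFHX4, a neural zinc finger homeobox gene, rose with quisinostat by 3.58 (SE 0.19, adjusted p = 3.4e-06), ONECUT2 by 2.60 (SE 0.14, adjusted p = 4.24e-06) and SATB1 by 2.34 (SE 0.19, adjusted p = 2.68e-05), and PRRX1 fell with mivebresib by 2.42 (SE 0.26, adjusted p = 0.000147). ZEB2, a mesenchymal and melanocyte regulator at a mean of 249 CPM in the control, fell with all 3 drugs, by 1.38 with mivebresib (SE 0.10, adjusted p = 1.54e-05). Of 6 Groucho/TLE corepressors tested, TLE4 rose with quisinostat by 1.16 (SE 0.13, adjusted p = 0.000117) and with mivebresib by 1.42 (SE 0.13, adjusted p = 5.06e-05), TLE1 rose with mivebresib by 0.32 (SE 0.08, adjusted p = 0.0137), and the other 4 fell with mivebresib. By adjusted p, 0 of these 6 rose and 0 fell with romidepsin (15.2% and 15.8% of all tested genes). With quisinostat 2 rose and 2 fell (28% and 25.1%), and with mivebresib 2 rose and 4 fell (22.2% and 24.1%).

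Of 12 listed melanocyte genes downstream of PAX3 and SOX10, 11 were tested, and 0 rose and 1 fell with romidepsin (15.2% and 15.8% of all tested genes). With quisinostat 2 rose and 6 fell (28% and 25.1%), and with mivebresib 1 rose and 7 fell (22.2% and 24.1%). MITF, at a mean of 350 CPM in the control and 301 CPM with romidepsin, had 133 with quisinostat and 126 with mivebresib. It fell by 1.39 with quisinostat (SE 0.08, adjusted p = 4.19e-06) and by 1.47 with mivebresib (SE 0.08, adjusted p = 4.67e-06). SOX10 fell by 1.93 with mivebresib (SE 0.10, adjusted p = 3.8e-06), the drug with which PAX3 rose by 0.23. Of the markers of other cells, the 6 fibroblast genes summed to 14.2 to 22.1 CPM in the control, 20.3 to 24.6 with romidepsin, 34.7 to 35.5 with quisinostat and 8.19 to 10.6 with mivebresib, with LUM at 0 outside romidepsin. The 5 epithelial genes summed to 4.31 to 4.68 CPM in the control, 7.21 to 8.09 with romidepsin, 10.0 to 10.1 with quisinostat and 6.22 to 6.33 with mivebresib. The 4 retinal pigment epithelium genes summed to 10.4 to 12.9 CPM in the control, 19.97 to 20.6 with romidepsin, 14.6 to 15.6 with quisinostat and 6.25 to 7.80 with mivebresib, with RLBP1 at 0 throughout. The 5 immune genes stayed within 61.2 to 83.2 CPM in all libraries, and the 4 endothelial genes reached at most 0.764 CPM, with CDH5 at 0. Their part in the members' changes was not tested.

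The 32 members that were not tested had at most 16 counts in any library. PAX8, a thyroid and kidney gene, held that largest count, 16 in mivebresib replicate 2 against 3 in the other mivebresib library. POU4F2, an early retinal ganglion cell gene, had 0 counts in both control and both mivebresib libraries, 4 and 5 with romidepsin and 8 and 5 with quisinostat. LHX8 had 7 and 3 counts with quisinostat, and PAX7, a relative of PAX3 in muscle and neural crest, had 4 and 7, and both were at 0 in the other 6 libraries. POU5F1, the pluripotency factor, had 3 to 10 counts in every library and shares sequence with its pseudogenes, 6 of which are members, so its reads may have been split among them. OTX2, POU1F1 and TLX1 had 0 counts in all 8 libraries, which allows up to 3 counts per library.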

How the data were processed

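RNA of MP38 cells was sequenced as strand-specific paired-end mRNA libraries, 2 per group from separate wells. The authors deposited whole-number read counts per gene symbol without normalization, and a table of log10 CPM with a pseudocount of 1, which was checked against the counts and not tested. The authors' quantile-normalized table was not used. The labels give hg38 as the build. The aligner, the annotation and whether the counting used strand are not given in the sources used here, so a gene and its antisense partner may share counts.

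The test was that of edgeR 4.0.16 under R 4.3.3 (TMM, filterByExpr by group with a minimum count of 10, quasi-likelihood test, 1 model of 8 libraries, Benjamini-Hochberg adjustment over 15085 genes). The study analysed its libraries with limma. Calls needed an adjusted p below 0.05 and a log2 fold change beyond 1.5. The common biological coefficient of variation was 0.0938. Where a group was at 0, a fold is a lower bound against a floor of 3 counts per library. Where a group held 1 to 3 counts, the ratio has a 95% exact (Clopper-Pearson) interval that covers counting error only. On simulated counts for quisinostat against control (14757 genes), edgeR recovered 97.4% of 196 tested changed genes with 0 false calls. DESeq2 recovered 94.9% with 0 false calls, and limma-voom 99.5% with 5. Whether these rates hold for members with few counts was not tested. Coordinates came from GENCODE 29 on GRCh38, promoter sequences from RefSeq on GRCh38.p14.

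Values were given for members called in at least 1 comparison or with a mean of at least 5 CPM in a group, others by counts, and genes outside the rule from lists of partners and markers. The members and lists were chosen with earlier results of these data known. Alternatives were DESeq2 1.42.0, limma-voom (limma 3.58.1), RLE and upper-quartile factors, library size alone, no filter, a mean CPM of at least 1, a replicate block, fits of the 4 compared libraries alone, adjusted p alone and each library left out. Some members are counted but not reported by name here.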

Additional observations from a re-analysis of the deposited data

How the results depend on the processing

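For members called in at least 1 comparison or with a mean of at least 5 CPM in a group, 220 pairs of a member and a comparison were past the adjusted p. Recomputed under 3680 alternatives in all, 3317 kept their side of the threshold, 363 lost it and 0 reversed; 69 of the losses were among the 110 called pairs. When genes under a mean CPM of 1 were left out, so that fewer members were tested, those called higher numbered 7 (romidepsin), 15 (quisinostat) and 3 (mivebresib), and in mivebresib against romidepsin 0 were called higher and 11 lower. With the 4 libraries of the comparison alone, 4 were called higher with mivebresib. By adjusted p alone, higher and lower members numbered 29 and 12 (romidepsin), 39 and 9 (quisinostat), 17 and 22 (mivebresib), 26 and 1 (quisinostat against romidepsin), 7 and 49 (mivebresib against quisinostat), and 10 and 36 (mivebresib against romidepsin).

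With each library left out in turn, members called higher ranged from 12 to 15 for romidepsin, 24 to 28 for quisinostat, 4 to 8 for mivebresib and 5 to 7 for quisinostat against romidepsin, and those called lower from 7 to 9 for mivebresib, 29 to 32 for mivebresib against quisinostat and 14 to 19 for mivebresib against romidepsin. Members called higher numbered 0 to 1 for mivebresib against quisinostat (1 without mivebresib replicate 1) and 1 for mivebresib against romidepsin. The count of 8 higher with mivebresib fell to 4 without control replicate 2 or mivebresib replicate 2, and to 5 without romidepsin replicate 2 or mivebresib replicate 1; the lone library is then assumed to vary like the other groups.

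The replicate numbers did not pair the libraries: deviations of same-numbered libraries correlated between -0.162 and 0.158 across pairs of groups. With the number as a replicate block, members called higher numbered 16 for romidepsin, 25 for quisinostat and 6 for mivebresib, and 8 were called lower with mivebresib.

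With 2 libraries a group, small changes of low members were not detectable at this depth: 48 members had under 50 counts in every library, 32 of which were not tested.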
